A study of Homo sapiens with 6 samples.

Results

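Notch signalling genes were examined in MDA-MB-231, an established cell line from a human breast carcinoma of the triple negative subtype, which has a mesenchymal character. The 10 genes described are the receptors NOTCH1, NOTCH2, NOTCH3 and NOTCH4, the ligands JAG1, JAG2, DLL1, DLL3 and DLL4, and the target gene HES1. They were chosen by symbol and all 10 were measured, among 18417 genes in all. The cells had been treated with 500 nM EC-70124, a multi-kinase inhibitor, for 24 h (3 arrays) or were control cells of the same line (3 arrays). The study describes the samples as independent and does not name a vehicle for the control cells. The arrays measured mRNA in a single cell line at 1 dose and 1 time, so that receptor cleavage and protein levels are outside these data.

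Notch is a signal between touching cells. A ligand of the Jagged or Delta-like family on the sender binds a Notch receptor on the neighbour, which is then cut by an ADAM protease and by gamma-secretase. The freed intracellular domain enters the nucleus, joins the DNA-binding protein RBPJ and Mastermind-like coactivators, and switches on genes of the HES and HEY families, which encode transcriptional repressors. In breast epithelium the pathway is known for its part in luminal cell fate and in the upkeep of stem-like cells.

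The sequences just upstream of HES1, HEY2 and JAG1 are shown because these genes stand at the receiving and the sending end of the pathway. In the results below HEY2 was called higher, JAG1 lower and HES1 in neither direction, and no link between sequence and response was tested. Each is the 250 bases before the annotated start of the gene in RefSeq (GRCh38.p14), written 5′ to 3′ on the strand of the gene. Capitals mark the core of the RBPJ site, TGGGAA, or its reverse complement TTCCCA.
HES1: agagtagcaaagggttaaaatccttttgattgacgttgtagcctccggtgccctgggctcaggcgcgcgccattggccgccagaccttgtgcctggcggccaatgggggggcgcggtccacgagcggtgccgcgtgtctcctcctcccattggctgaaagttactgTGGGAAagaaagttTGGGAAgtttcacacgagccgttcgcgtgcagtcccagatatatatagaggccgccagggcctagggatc
HEY2: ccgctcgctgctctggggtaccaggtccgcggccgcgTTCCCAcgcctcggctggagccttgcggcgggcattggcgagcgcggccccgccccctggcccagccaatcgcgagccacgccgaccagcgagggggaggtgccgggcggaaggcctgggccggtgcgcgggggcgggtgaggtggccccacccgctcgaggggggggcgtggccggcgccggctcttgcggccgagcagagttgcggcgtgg
JAG1: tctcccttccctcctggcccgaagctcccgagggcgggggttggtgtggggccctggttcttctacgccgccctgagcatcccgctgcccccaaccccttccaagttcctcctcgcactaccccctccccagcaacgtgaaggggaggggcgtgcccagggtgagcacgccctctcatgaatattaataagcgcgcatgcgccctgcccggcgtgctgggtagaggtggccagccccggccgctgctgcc
The windows lie at chr3:194135898-194136147 (plus strand) for HES1, at chr6:125749382-125749631 (plus strand) for HEY2 and at chr20:10674000-10674249 (minus strand) for JAG1. HES1 held 2 cores, both on the strand of the gene, at 84 to 79 and 70 to 65 bases before the start. HEY2 held 1 core on the opposite strand, at 213 to 208 bases before the start, and JAG1 held none. Of 34943 RefSeq promoter windows of the same length, 20.9% held the core on either strand at least once, and 2.89% held 2 or more. A window was found for 8 of the 10 genes, and among these HES1 was the only one with the core. The N-box CACNAG (reverse complement CTNGTG), a site bound by HES proteins, occurred 3 times in HES1, once each in NOTCH3 and NOTCH4, and in 32.1% of all windows. A match describes these letters and does not show that a factor is bound.

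The arrays were alike in overall brightness and correlation. Median intensities were 451 to 460.1 in EC-70124 arrays and 437 to 444 in control arrays, and Pearson correlations of log2 values ran from 0.990 to 0.993 within groups and from 0.979 to 0.984 between them. EC-70124 replicate 3 stood apart for part of the genes. In 439 of 18417 genes it lay below all 3 controls while both other EC-70124 arrays lay above all 3, and in 291 genes the reverse held. The same counts were 134 and 203 for EC-70124 replicate 1, and 75 and 141 for replicate 2. Of 9 markers of the line, 0 were among the dimmest 30% of genes, and VIM, an intermediate filament of mesenchymal cells, was at 13148 in EC-70124 arrays and 13827 in control arrays (means). Of these 9, 5 were called lower (CD44, FN1, SPARC, AXL and EGFR) and 2 higher (KRT8 and KRT18), against 14.8% and 19.7% of all genes. FN1 was at 46.6% of control, SPARC at 48.0% and KRT18 at 171%, and their part in the results on the Notch genes was not tested. Of 3 receptor genes used to define the subtype, ESR1 and PGR were among the dimmest 30% of genes. ERBB2, which encodes HER2, was not (means of 1515 in EC-70124 and 1486 in control arrays). Of 10 endothelial markers, looked at because JAG1, DLL4 and NOTCH4 are also known from vessels, 7 were among the dimmest 30% of genes, PECAM1, CDH5, VWF and TEK included, and KDR, CLDN5 and ESAM were not. In limma 0 of the 10 were called lower and 1 higher (ESAM), against 14.8% and 19.7% of all genes. At an unadjusted p under 0.05, 1 was lower, against 3526 of all 18417 genes. Their summed intensity ran from 5953 to 6303 in EC-70124 arrays and from 5456 to 5731 in control arrays. ESAM, the brightest of the 10, had means of 3085 in EC-70124 and 2547 in control arrays, so that the sum does not describe the other markers.

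Of the 10 genes, 4 had lower mRNA in EC-70124 cells, namely JAG1, NOTCH1, NOTCH2 and NOTCH4, and 0 had higher mRNA. JAG1 fell most, to 45.9% of control, followed by NOTCH1 at 56.9%, NOTCH2 at 79.7% and NOTCH4 at 85.8%. NOTCH3, JAG2, DLL1, DLL3, DLL4 and HES1 did not pass the test. Genes were called at an adjusted p under 0.05 in limma over all 18417 genes, where 14.8% were called lower and 19.7% higher. At an unadjusted p under 0.05 the counts among the 10 genes were again 4 lower and 0 higher. At that level 3526 of all 18417 genes were lower and 4314 higher. All 3 EC-70124 arrays lay below all 3 control arrays for 5 of the 10 genes (these 4 and JAG2), against 22.0% of all genes, and above them for 0 of the 10, against 25.6% of all genes. The median log2 fold change was -0.15 over the 10 genes and -0.004 over all genes. In RNA of whole cultures, fewer expressing cells and less RNA per cell cannot be told apart.

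**Figure D1:**
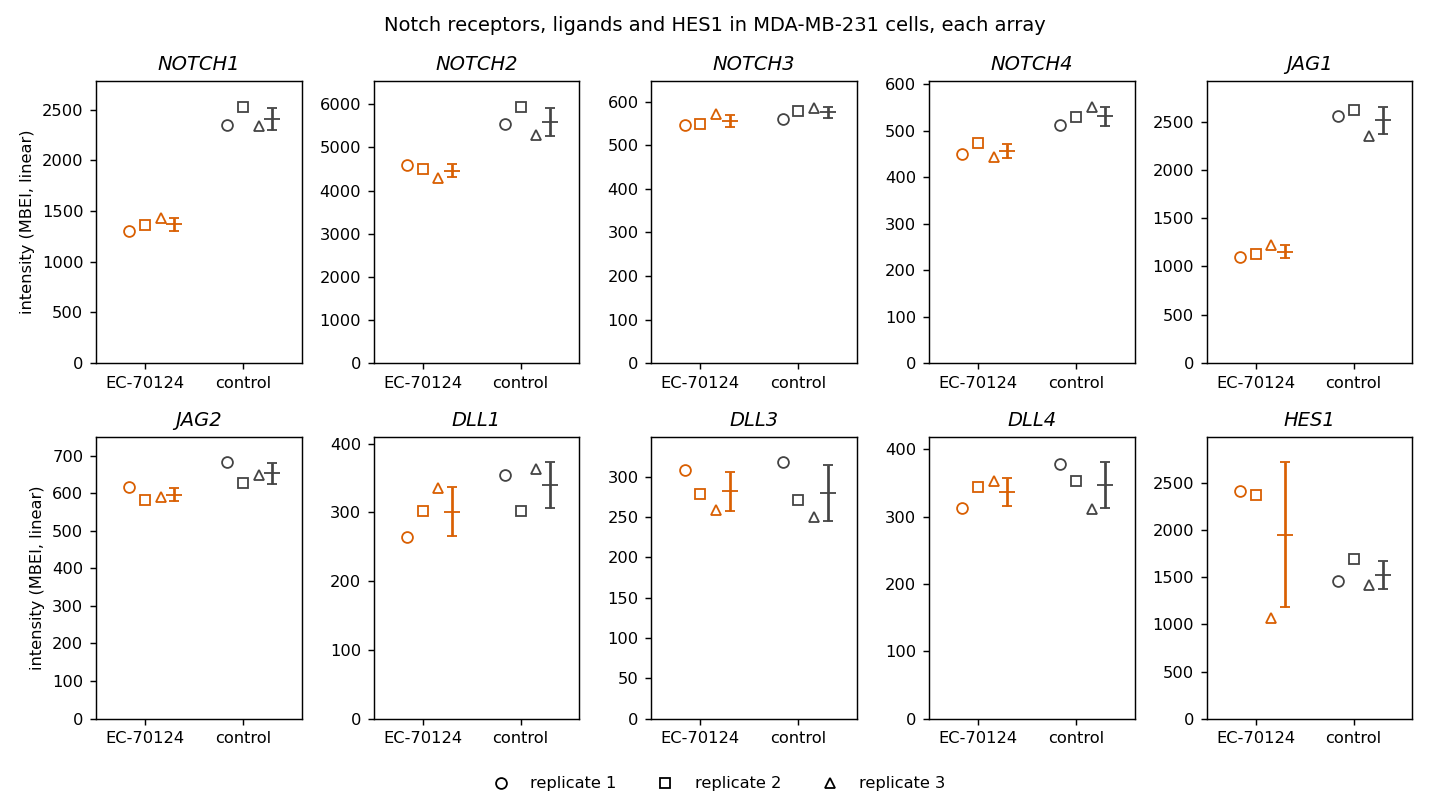
Intensity (linear model-based expression index, vertical axes from 0) of each of the 10 genes in the 3 EC-70124 arrays (left of each panel) and the 3 control arrays (right), with marker shape giving the replicate and the bars the mean ± SD. JAG1 and NOTCH1 lie far below control in all 3 EC-70124 arrays, whereas HES1 lies above control in EC-70124 replicates 1 and 2 and below it in replicate 3.

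Among the receptors, NOTCH1 had the largest fold change. NOTCH1, a main receptor of epithelial cells and a known oncogene in T-cell leukaemia, had intensities of 1309, 1366 and 1437 in EC-70124 arrays, against 2354, 2531 and 2339 in control arrays. Every treated array lay below every control array, by a margin far wider than the spread within either group. The means were 1371 ± 64.3 in EC-70124 cells and 2408 ± 107 in control cells (SD, n = 3 each). The log2 fold change of -0.81 (SE 0.06, 95% confidence interval -0.96 to -0.67) passed limma's test with an adjusted p of 4.12e-05. Ordered by size of change, NOTCH1 was number 250 among the genes with lower values.

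NOTCH2, the receptor that is also prominent in liver and B cells, had intensities of 4597, 4501 and 4288 in EC-70124 arrays, against 5555, 5946 and 5300.3 in control arrays. The groups did not overlap. The log2 fold change was -0.33 (SE 0.06, interval -0.47 to -0.18, adjusted p = 0.00449, limma). A second probe set, which the annotation assigns jointly to NOTCH2 and its human-specific partial copies NOTCH2NLA and NOTCH2NLB, gave 7038, 6681 and 6180.2 in EC-70124 arrays and 6468, 7095 and 6825 in control arrays. There the groups overlapped and the log2 fold change was -0.04 (SE 0.07, adjusted p = 0.776 over all probe sets, limma), so that the difference of NOTCH2 rests on 1 of its probe sets. Because the copies share sequence with NOTCH2, transcripts of the copies cannot be separated in the joint probe set.

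NOTCH4, a receptor best known from endothelium and from mammary tumours in mice, had 450.3, 473 and 444 in EC-70124 arrays, against 512, 530.1 and 552 in control arrays. The groups did not overlap, and the log2 fold change was -0.22 (SE 0.06, interval -0.35 to -0.09, adjusted p = 0.0174, limma). This call depended on single arrays. The adjusted p was 0.0545 without EC-70124 replicate 1, 0.0535 without control replicate 2 and 0.0617 without control replicate 3, with log2 fold changes of -0.21, -0.22 and -0.19. Of the 10 endothelial markers given above, 0 were called lower and 1 higher, against 14.8% and 19.7% of all genes, but 7 were among the dimmest 30%. All 3 EC-70124 arrays lay below all 3 control arrays for 1 of them, against 22.0% of all genes, and above for 2, against 25.6%. The 1 below was TIE1 (log2 fold change -0.18, adjusted p = 0.0718, limma). A link between NOTCH4 and these markers was not tested.

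NOTCH3, the receptor of vascular smooth muscle and of a subset of breast tumours, gave 547, 548 and 573 in EC-70124 arrays and 561, 579.7 and 586 in control arrays. The groups overlapped. The log2 fold change was -0.05 (SE 0.05, interval -0.17 to 0.07, adjusted p = 0.526, limma). This interval lies above those of NOTCH1 and NOTCH2 but overlaps that of NOTCH4, and differences between receptors were not tested.

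Of the ligands, JAG1 changed and the others did not pass the test. JAG1, a ligand that many carcinoma cells display and that activates NOTCH receptors on neighbouring tumour and stromal cells, had intensities of 1100.0, 1128 and 1227 in EC-70124 arrays, against 2562, 2623 and 2351 in control arrays. The highest treated array was far below the lowest control array. The means were 1152 ± 66.7 in EC-70124 cells and 2512 ± 143 in control cells (SD, n = 3 each), a 2.18-fold lower level in EC-70124 cells. The log2 fold change was -1.12 (SE 0.07, interval -1.28 to -0.97, adjusted p = 1.57e-05, limma), and JAG1 was number 79 among the genes with lower values.

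JAG2, the second Jagged ligand, gave 617, 583 and 589 in EC-70124 arrays, against 682, 626 and 649 in control arrays. The groups just failed to overlap. The log2 fold change of -0.13 (SE 0.06, interval -0.26 to 0.004) did not pass in limma, with an adjusted p of 0.127, and the interval allows no fall as large as that of JAG1. With quantile normalization of the same arrays the log2 fold change was -0.19 and the adjusted p 0.0336.

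None of the 3 Delta-like ligands was called in limma, against 14.8% of all genes called lower and 19.7% higher. At an unadjusted p under 0.05 the count was again 0 of 3, against 3526 lower and 4314 higher of 18417 genes. DLL1, an activating ligand of mammary stem cells in mice, gave 265, 302 and 336 in EC-70124 arrays and 354, 302 and 363 in control arrays, with a log2 fold change of -0.18 (SE 0.10, interval -0.42 to 0.06, adjusted p = 0.241). DLL3, an atypical member that acts mainly inside the cell, gave 308, 278 and 259 in EC-70124 arrays and 318, 271 and 250.3 in control arrays, with a log2 fold change of 0.01 (SE 0.10, interval -0.22 to 0.24, adjusted p = 0.945). DLL4, the ligand of sprouting vessels, gave 313, 344 and 353 in EC-70124 arrays and 378, 353 and 311 in control arrays, with a log2 fold change of -0.04 (SE 0.08, interval -0.24 to 0.15, adjusted p = 0.757). The groups overlapped for all 3. Leaving out single arrays moved DLL1 between -0.26 (without EC-70124 replicate 3 or control replicate 2) and -0.09 (without EC-70124 replicate 1), and it was not called in any of these fits. DLL1 and DLL3 were among the dimmest 30% of genes, and the table holds no measure of background against which to set them.

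**Figure D2:**
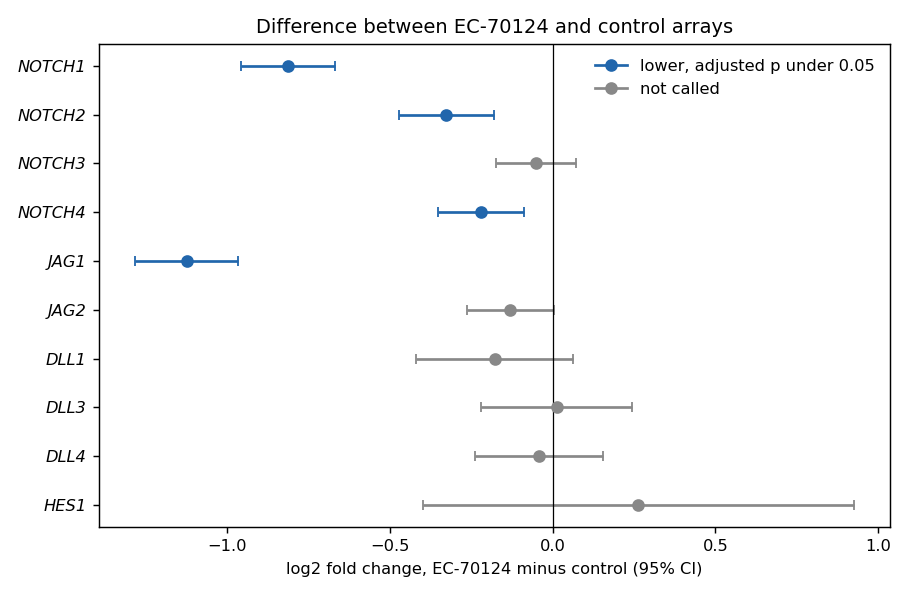
Log2 fold change of each gene (EC-70124 minus control, horizontal axis) with its 95% confidence interval from limma (bars), blue where the adjusted p was under 0.05 and gray elsewhere. JAG1 at -1.12 and NOTCH1 at -0.81 have intervals far from 0, and HES1 has the widest interval, -0.40 to 0.92.

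HES1 is the repressor that is the classical direct target of Notch, and its promoter window holds the 2 matches to TGGGAA shown above. It did not pass the test and was the most variable of the 10 genes. Its intensities were 2419, 2375 and 1063 in EC-70124 arrays and 1467, 1697 and 1420.4 in control arrays. Replicates 1 and 2 of the treated cells lay above all controls, and replicate 3 lay below all of them. The means were 1953 ± 770.4 in EC-70124 cells and 1528 ± 148 in control cells (SD, n = 3 each), and the log2 fold change was 0.26 (SE 0.29, interval -0.40 to 0.92, adjusted p = 0.540, limma). The SD of the log2 values over the 3 EC-70124 arrays was 0.68, against a median of 0.0859 over all genes, and only 16 of 18417 genes (0.0869%) had a larger one. Without EC-70124 replicate 3 the log2 fold change was 0.65 (SE 0.08, interval 0.45 to 0.85), a 1.57-fold higher level in EC-70124 cells, with an adjusted p of 0.00114 in limma. The log2 fold change was 0.0611 without EC-70124 replicate 1 (adjusted p = 0.908) and 0.0743 without EC-70124 replicate 2 (adjusted p = 0.887), so that the size moved with each treated array, and HES1 was called only in the fit without replicate 3. This is the array that stood apart for the genes counted above, and what set it apart was not tested. JAG1 and NOTCH1 did not share the pattern, since their values in EC-70124 replicate 3 were slightly above those of the other treated arrays and far below control.

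The other targets gave no common direction. Of 9 further target factors measured, HEY2 was called higher and 0 were called lower (0 also at an unadjusted p under 0.05, limma). Over all genes, 19.7% were called higher and 14.8% lower, and 3526 of 18417 were lower at an unadjusted p under 0.05. HEY2, a repressor known from heart and vessel development, had 502, 523 and 475 in EC-70124 arrays, against 294, 305 and 298 in control arrays. The groups did not overlap, and the log2 fold change was 0.74 (SE 0.06, interval 0.61 to 0.87, adjusted p = 4.58e-05, limma), a 1.67-fold higher level in EC-70124 cells. HEY1, a closely related repressor, had 456, 407 and 725 in EC-70124 arrays, against 367, 377 and 390.4 in control arrays. All treated arrays were above control, with replicate 3 highest, where HES1 was lowest. Its log2 fold change of 0.44 (SE 0.19, adjusted p = 0.113) did not pass, and without EC-70124 replicate 3 it was 0.19 (adjusted p = 0.067, limma). The median log2 fold change of the 9 genes was -0.01.

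**Figure D3:**
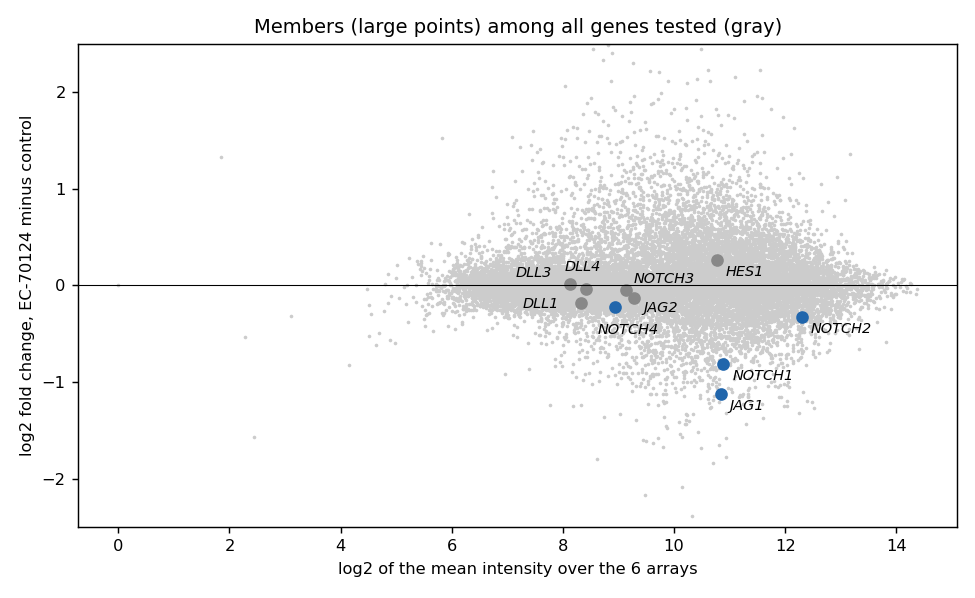
Log2 fold change (EC-70124 minus control, vertical axis) against log2 of the mean intensity over the 6 arrays (horizontal axis) for all 18417 genes (gray points) and the 10 named genes (blue where called lower, dark gray where not called). JAG1 lies at -1.12 and NOTCH1 at -0.81, and 17 genes beyond 2.5 on the vertical axis are outside the plot.

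Further pathway genes were described by role, from 75 listed genes of which 68 were measured. Of these 16 were called lower (23.5%) and 9 higher (13.2%), against 14.8% and 19.7% of all genes, and their median log2 fold change was -0.02. The members that moved worked at different steps and in both directions.

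On the side of the sending cell, MIB1, the ubiquitin ligase that lets ligands be pulled into the sending cell and thereby activate the receptor, had 1132, 1182 and 917 in EC-70124 arrays, against 1678, 1684 and 1767 in control arrays. The groups were well apart, with a log2 fold change of -0.68 (SE 0.10, adjusted p = 0.000874, limma). MIB2 and NEURL1 were not called. Of 9 non-canonical ligands 3 were called lower and 0 higher (0 also at an unadjusted p under 0.05), against 14.8% and 19.7% of all genes. At that unadjusted level 4314 of all 18417 genes were higher. CNTN1, a contactin that binds Notch, was lower by -0.38 (adjusted p = 0.00227, limma), CCN3 by -0.24 and CNTN6 by -0.21. CNTN1 and CNTN6 were among the dimmest 30% of genes. The calls of CCN3 and CNTN6 were close to the threshold (adjusted p of 0.0392 and 0.0398). CCN3 missed it without EC-70124 replicate 1, EC-70124 replicate 2, control replicate 1 or control replicate 2 (adjusted p of 0.118, 0.0869, 0.120 and 0.124), and CNTN6 missed it in each fit without 1 array other than EC-70124 replicate 3 (0.0819 to 0.129).

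The steps that ready and cut the receptor were mixed. FURIN, the protease of the first cleavage in the Golgi, was lower by a log2 fold change of -0.42 (limma, adjusted p = 0.00547). XXYLT1, which extends xylose on Notch repeats, stood at -0.38 (adjusted p = 0.00875), and POFUT1, which adds the O-fucose that Fringe enzymes extend, at -0.24 (adjusted p = 0.0109, and 0.0510 without control replicate 1). POGLUT1, which adds O-glucose to the same repeats, was higher, with 535, 519 and 719.6 in EC-70124 arrays, against 362, 359.7 and 371 in control arrays (log2 fold change 0.68, SE 0.12, adjusted p = 0.00249). The Fringe genes LFNG, MFNG and RFNG were not called, at 0.04, -0.01 and -0.08. ADAM10, the main protease of ligand-triggered cleavage, had 4820.4, 5032 and 4277 in EC-70124 arrays, against 6230.3, 6280.4 and 6327 in control arrays. The difference was -0.42 on the log2 scale (SE 0.07, adjusted p = 0.00213), while ADAM17, a related protease, stood at 0.01 (SE 0.08, interval -0.17 to 0.20, adjusted p = 0.933) with overlapping groups. Of 5 gamma-secretase subunits measured, the catalytic subunit PSEN2 was called higher by 0.40 (SE 0.08, adjusted p = 0.00438), and 0 were called lower (0 also at an unadjusted p under 0.05). The shares over all genes were 19.7% higher and 14.8% lower, and 3526 of 18417 genes were lower at an unadjusted p under 0.05.

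In the nucleus, RBPJ, the DNA-binding partner of all 4 receptors, had 4018, 4113 and 4047 in EC-70124 arrays, against 4709, 4979 and 5288 in control arrays. The groups did not overlap, and the log2 fold change was -0.30 (SE 0.06, adjusted p = 0.00562, limma). MAML3, a Mastermind-like coactivator, was lower by a log2 fold change of -0.63 (adjusted p = 0.00121), and MAML2 was not called (-0.17, adjusted p = 0.293). Of the acetyltransferases that this complex recruits, CREBBP was higher by 0.65 (adjusted p = 0.000105) and EP300 by 0.44 (adjusted p = 0.000909). KAT2B was not called, at 0.02 (adjusted p = 0.832). CREBBP and EP300 serve many other factors as well. Of the corepressor list, 4 genes were lower, the Groucho-type repressors TLE3 (-0.73, adjusted p = 7.08e-05), TLE1 (-0.64, 0.00167) and TLE2 (-0.21, 0.0377), which are also used by HES and HEY proteins, and L3MBTL3 (-0.45, 0.0264), which binds RBPJ. The call of TLE2 was lost without any 1 array other than control replicate 1 (adjusted p of 0.0666 to 0.126), and that of L3MBTL3 without EC-70124 replicate 1, control replicate 2 or control replicate 3 (0.0503, 0.0850 and 0.0802). The list also held KYAT3, a kynurenine aminotransferase that is not known as a corepressor (0.42, adjusted p = 0.00353). Without it the counts were 4 lower and 0 higher of 8 genes (0 higher also at an unadjusted p under 0.05), and 16 lower and 8 higher of 67 pathway genes. Of all genes, 14.8% were called lower and 19.7% higher, and 4314 of 18417 were higher at an unadjusted p under 0.05.

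Genes of receptor turnover also went both ways. NEDD4L, a ubiquitin ligase, had 5636, 5762 and 5732 in EC-70124 arrays, against 8466, 8701 and 8686 in control arrays, with a log2 fold change of -0.59 (adjusted p = 6.73e-05). Its relative NEDD4 had 5045, 4903 and 4826 in EC-70124 arrays, against 3462, 3503 and 3514 in control arrays, with a log2 fold change of 0.50 (adjusted p = 0.000172). Both differences were wide beside the spread of the replicates. FBXW7, the F-box protein that marks the intracellular domain for destruction, was lower by a log2 fold change of -0.34 (adjusted p = 0.00183). CCNC, the cyclin whose kinase phosphorylates that domain, was higher by 0.30 (adjusted p = 0.00313), and ITCH, another ligase of Notch, by 0.20 (adjusted p = 0.0151, 0.0614 without EC-70124 replicate 2 and 0.0548 without control replicate 1). NUMB, an inhibitor of Notch that is handed to 1 daughter cell in asymmetric division, was not called (log2 fold change -0.18, adjusted p = 0.119).

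**Figure D4:**
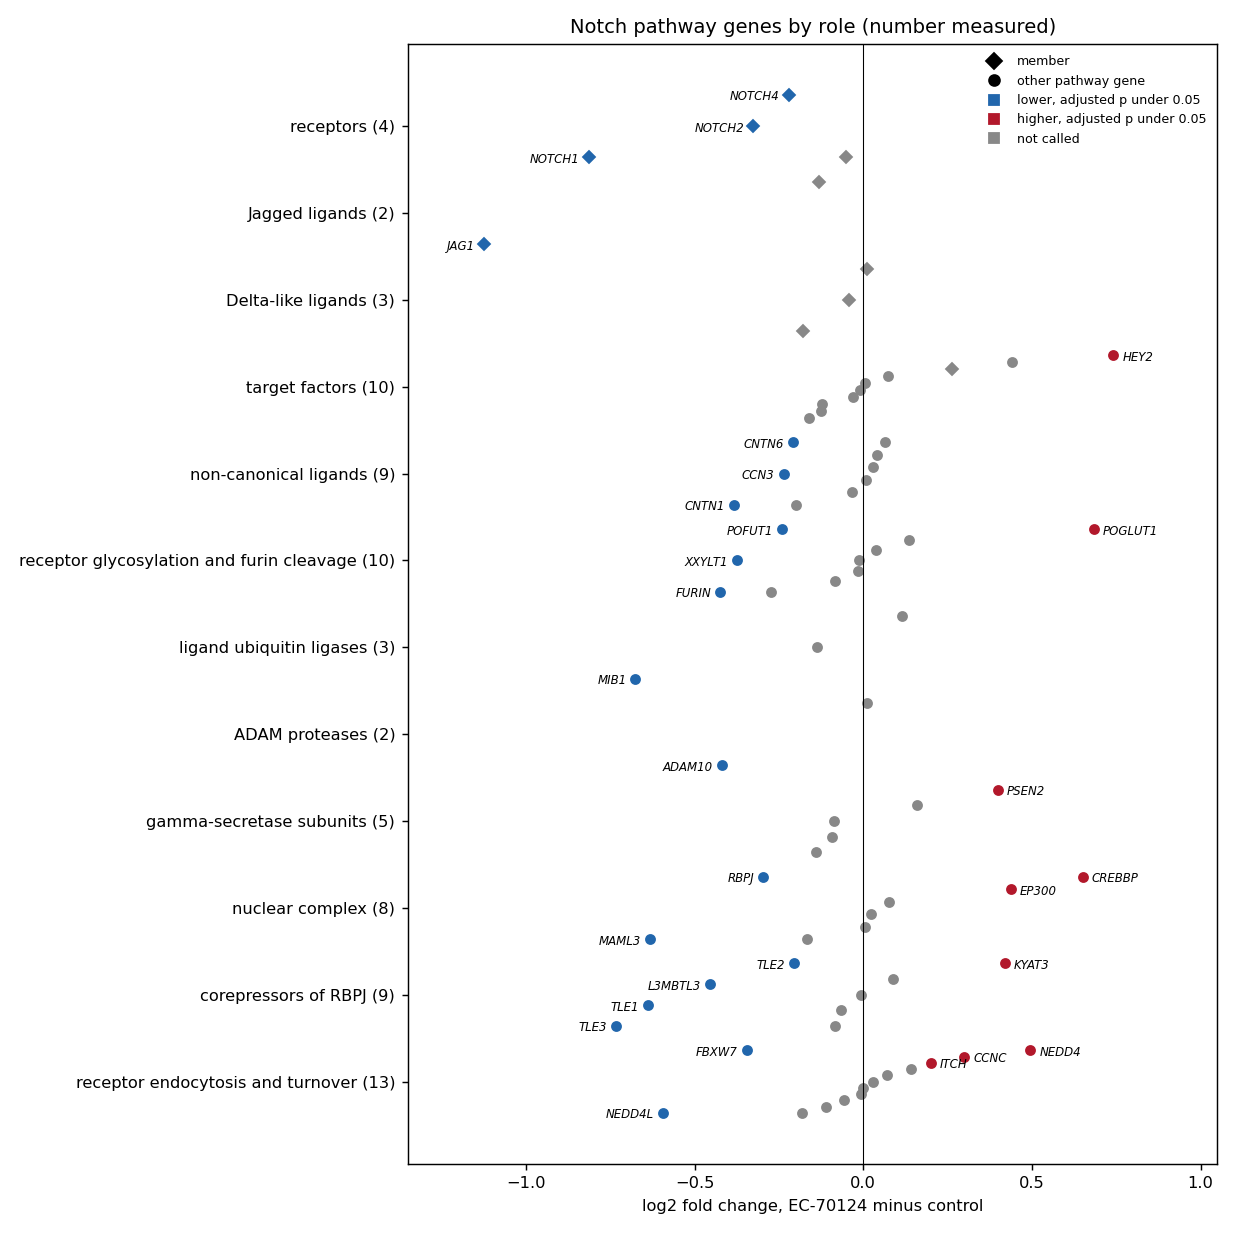
Log2 fold change (EC-70124 minus control, horizontal axis) of the 10 named genes (diamonds) and 68 further pathway genes (circles) in 12 roles, with the number measured in brackets. Blue marks genes called lower, red those called higher and gray those not called, and vertical position within a role has no meaning. Calls lie on the lower side for the receptors and JAG1, and on both sides for the nuclear complex and for receptor turnover.

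The genes whose values over the 6 arrays were closest to those of NOTCH1, each taken relative to its own control mean, were NTM, NIBAN2 and B4GALT2. Their root mean square distances from NOTCH1 were 0.0248, 0.0286 and 0.0286 on the log2 scale. Those closest to JAG1 were PLAT (0.0515), which encodes tissue plasminogen activator, SQLE (0.0553), an enzyme of cholesterol synthesis, and FN1 (0.0630), which encodes fibronectin. Their log2 fold changes were -1.16 for PLAT, -1.13 for SQLE and -1.10 for FN1. This likeness is a description over 6 arrays that share the same contrast.

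**Figure D5:**
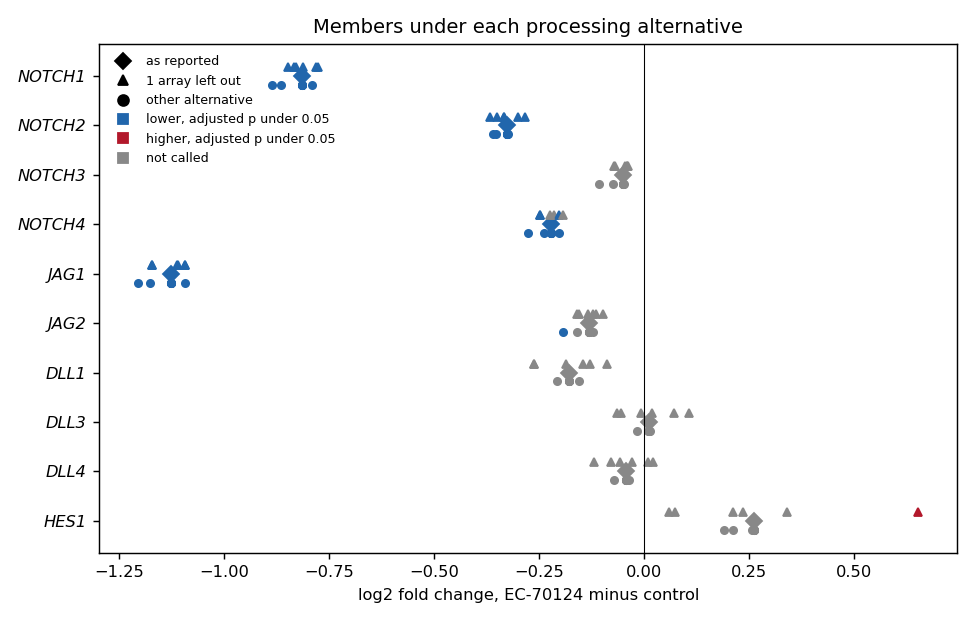
Log2 fold change (EC-70124 minus control, horizontal axis) of each gene as reported (diamonds), with 1 array left out (triangles) and under the other processing alternatives (circles), blue where called lower, red where called higher and gray where not called. JAG1 stays between -1.20 and -1.09 and NOTCH1 between -0.89 and -0.78, whereas HES1 runs from 0.06 to 0.65 and is called higher in 1 fit, the one without EC-70124 replicate 3.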

How the data were processed

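RNA of MDA-MB-231 cells was hybridised to Affymetrix Human Gene ST arrays. The authors normalized all arrays in dChip by rank-invariant probes and summarised each probe set by its model-based expression index. The values they deposited are linear intensities, and no further normalization was applied here. Neither the dChip version nor a background correction is stated in the sources used. The number of arrays limits the precision (median SE 0.07 on the log2 scale).

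Intensities were floored at 1 and taken as log2. Of 33252 probe sets, 19460 have 1 symbol in the platform annotation, 1754 several and 12038 none. Each gene was represented by its brightest single-symbol probe set (mean of the 6 arrays). Groups were compared 2-sided with lmFit and eBayes of limma 3.58.1 (R 4.3.3), with no covariate and Benjamini-Hochberg adjustment over 18417 genes at 0.05. All log2 fold changes are EC-70124 minus control. The fit was tested on simulated data. An exact permutation test of 3 against 3 arrays cannot go below p = 0.1, its value for JAG1, NOTCH1, NOTCH2, NOTCH4 and JAG2. Of the pathway genes, 7 of the listed genes have no single-symbol probe set and are not analysed here. Promoter windows came from RefSeq (GRCh38.p14).

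The genes and lists were chosen with earlier results of these data known. The rule for names took all 10 genes, the further pathway genes past the threshold and the 3 genes closest to the receptor and the ligand with the largest change. HEY1, ADAM17, MIB2, NEURL1, NUMB, MAML2, KAT2B and the Fringe genes were named after their values were seen. So were the markers VIM, CD44, FN1, SPARC, AXL, EGFR, KRT8, KRT18, ESR1, PGR, ERBB2, PECAM1, CDH5, VWF, TEK, TIE1, KDR, CLDN5 and ESAM. Alternatives were quantile or cyclic loess normalization, a filter that dropped the dimmest 30% of genes, adding 50 before the logarithm, the median of a gene's probe sets, adjustment over all probe sets, limma with trend and robust options, the replicate number as a block, and the omission of each array in turn.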

Additional observations from a re-analysis of the deposited data

How the results depend on the processing

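JAG1, NOTCH1 and NOTCH2 were called lower in each of 14 alternative fits. The median over probe sets could not move the 10 genes, since none has a further single-symbol probe set. For NOTCH2, no fit used the probe set shared with its partial copies (log2 fold change -0.04, adjusted p = 0.776 over all probe sets, limma). NOTCH4 missed the threshold in 3 of 14, those without EC-70124 replicate 1, control replicate 2 or control replicate 3, so that the number of the 10 genes called lower ran from 3 to 4 with 1 array left out, and it was 5 with quantile normalization, which added JAG2. The number called higher was 0 as reported and 0 to 1 with 1 array left out, with HES1 called without EC-70124 replicate 3. DLL3, at 0.01 as reported, was at -0.0153 with quantile normalization and ran from -0.0646 to 0.107 with 1 array left out. DLL4 turned to a positive value without EC-70124 replicate 1 or control replicate 1 and ran from -0.118 to 0.0220. The further pathway genes called lower numbered 16 as reported, 18 with quantile normalization, 12 with all probe sets tested and 12 to 15 with 1 array left out, and those called higher numbered 9 as reported and 8 to 10 with 1 array left out. Over all genes, 2722 were called lower and 3632 higher as reported, against 3528 lower and 3113 higher with quantile normalization, where the median log2 fold change of all genes was -0.05.

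Replicate numbers are shared by the groups, but nothing in the labels ties equal numbers together. Deviations from the group means correlated at 0.127, -0.0225 and 0.136 for arrays of the same number. For arrays of different numbers the correlations ran from -0.218 to 0.149, and the numbers were not taken as pairs. With the replicate number as a block, 4 of the 10 genes were called lower and 0 higher, as without it, and 14 further pathway genes were called lower and 9 higher. The block ended the calls of CCN3 (adjusted p = 0.0671) and TLE2 (adjusted p = 0.0568). The filter on dim genes left out DLL1 and DLL3, and among the called pathway genes CNTN1 and CNTN6, which therefore have no value under it. The further pathway genes called lower then numbered 14.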

Other observations

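The 16 genes with a larger SD of log2 values over the EC-70124 arrays than HES1 included PIK3IP1 and KDM7A, both named after their values were seen. PIK3IP1, a negative regulator of PI3K, had 676, 760.0 and 276 in EC-70124 replicates 1, 2 and 3, against a control mean of 247. KDM7A, a histone demethylase, had 994, 1027 and 411 in the same arrays, against a control mean of 622. EC-70124 replicate 3 was the lowest of the treated arrays for both, as for HES1, but over the 16 genes it was the highest in 10, the lowest (or tied for it) in 5 and in between in 1. The cause was not tested.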
